A study of Rattus norvegicus with 10 samples.

Results

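Transcripts of 10 genes of the angiopoietin and vascular endothelial growth factor (VEGF) systems of blood vessels were followed in hearts of adult and aged rats. They were chosen by name, with earlier results of these data known. They were the ligand genes Angpt1, Angpt2, Vegfa, Vegfb and Vegfc, the receptor genes Tek, Tie1, Kdr and Flt1, and the endothelial adhesion gene Pecam1. A probe set was taken where the platform annotation gives 1 of these names as its only symbol. That gave 14 of 31042 probe sets and 10 of 14217 named genes. The rats were male Fischer-344 animals, an inbred laboratory strain. The adult group had 5 arrays of hearts at 6 months of age and the aged group 5 arrays at 24 months, and no other treatment or genotype is labelled. Per the labels, all the rats ate standard chow and spent 1 week in controlled housing before their hearts were taken. The sample protocols name the whole heart and the series text the ventricles, so it is not settled whether atria were included. The labels leave unsaid whether the arrays come from different animals, and the p-values reflect variation among these samples, which may be technical. All 14 measured cardiomyocyte markers had a probe set in the brightest of 3 intensity classes inferred from the table, against 19.4% of all genes. Of the 21 endothelial markers measured besides the members, 7 had one, and all 21 had a probe set in the middle or the brightest class.

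Angiopoietins and VEGFs are secreted proteins that act on receptor tyrosine kinases of endothelial cells. Angpt1, made mostly by cells around the vessel, activates the receptor Tie2, encoded by Tek, and keeps vessels quiet and tight, whereas Angpt2, which endothelial cells store and release, can block that action. Vegfa drives endothelial growth and permeability through Kdr (VEGF receptor-2), while Flt1 (VEGF receptor-1) binds Vegfa and Vegfb tightly and can act as a trap. In the heart, cardiomyocytes are a known source of Vegfa and Vegfb, and the capillary network lies close around them.

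In aged hearts Angpt1 and Vegfa fell, Angpt2 and Tek rose, and the other 6 members did not pass the test. Angpt1 was 1.92-fold higher in adult than in aged hearts and Vegfa 1.39-fold higher, while Angpt2 was 1.53-fold and Tek 1.27-fold higher in aged hearts (n = 5 per age). By limma's moderated test over all genes with Benjamini-Hochberg adjustment, 4 of the 10 members passed an adjusted p of 0.05, 2 in each direction, where 11.9% of all genes did (6.77% higher and 5.09% lower in aged hearts). The ages did not overlap in 3 members, Angpt1, Vegfa and Tek, against 9.91% of all genes. The median log2 difference over the members, aged minus adult, was -0.03 and over all genes -0.005, while the median size of the difference was 0.25 in the members and 0.08 in all genes. Since the members were chosen with earlier results known, these comparisons with all genes are a description and not a test of the members. Values are log2 intensities relative to the median of the 10 arrays, so a value shows a difference between arrays and never a level, and probe sets cannot be ranked by abundance. The log base is inferred, as described with the processing. In bulk tissue, fewer cells of a type and less RNA per cell cannot be told apart.

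**Figure D1:**
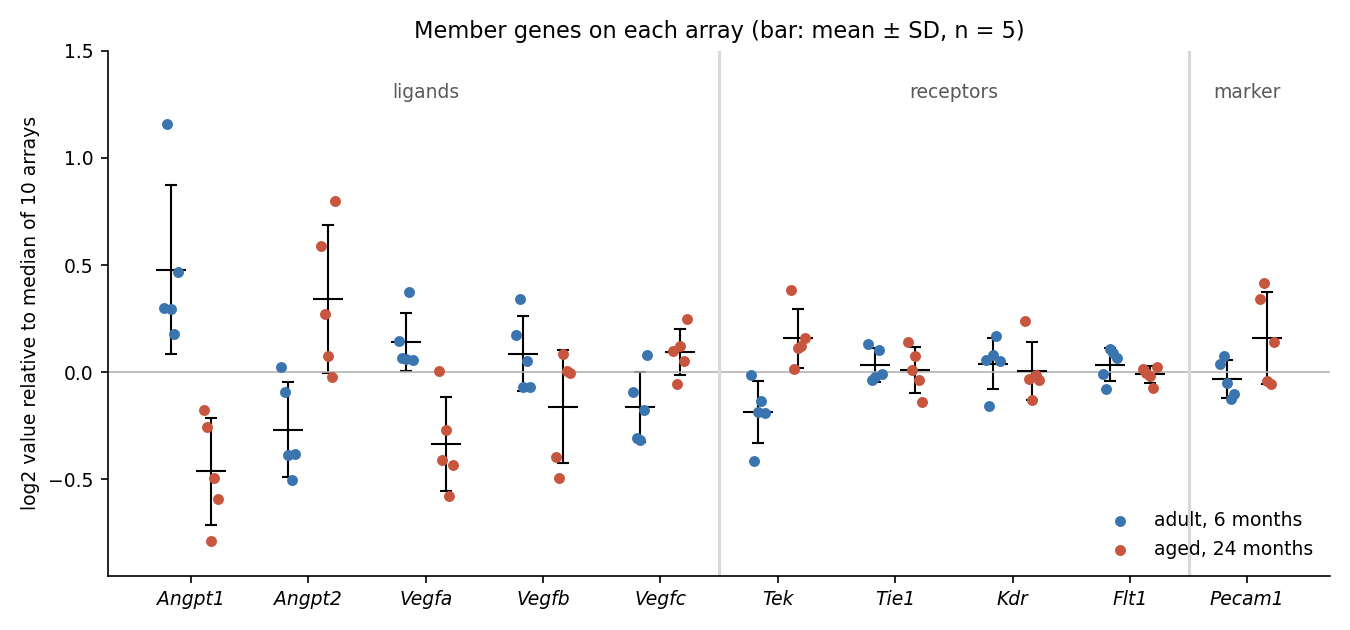
Log2 value of each member gene relative to its median over the 10 arrays (vertical axis), 1 point per array, adult in blue and aged in red, with bars at the mean and SD of 5 arrays. Aged points lie wholly below adult points for Angpt1 and Vegfa and wholly above them for Tek; the ages overlap in the other 7 genes.

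The array measures transcripts and not promoters, and the sequences upstream of the VEGF ligand genes are shown for orientation, since Vegfa and Vegfc differed between the ages with opposite signs, Vegfc without passing the test. Of the 10 members, 6 had an entry in the RefSeq promoter table of build GRCr8 (Tie1, Vegfa with 2 starts, Vegfb, Vegfc, Kdr and Flt1). The 250 bases before the start are given, 5′ to 3′ on the gene's strand, for the upstream start of Vegfa (chr9:22452604-22452853, plus strand) and for Vegfc (chr16:44560888-44561137, minus strand). Capitals mark each GC box, GGGCGG or its reverse complement.
Vegfa: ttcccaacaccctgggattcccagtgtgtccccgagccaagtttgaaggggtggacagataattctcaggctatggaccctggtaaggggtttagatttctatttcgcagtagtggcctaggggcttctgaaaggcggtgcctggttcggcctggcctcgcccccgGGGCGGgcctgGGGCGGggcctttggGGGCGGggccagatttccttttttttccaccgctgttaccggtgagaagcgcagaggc
Vegfc: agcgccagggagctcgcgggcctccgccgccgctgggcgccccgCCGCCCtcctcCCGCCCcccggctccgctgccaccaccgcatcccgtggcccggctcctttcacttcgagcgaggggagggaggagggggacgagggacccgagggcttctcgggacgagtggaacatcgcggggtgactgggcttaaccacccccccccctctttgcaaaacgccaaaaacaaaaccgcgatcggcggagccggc
The Vegfa window held 3 GC boxes, 78, 67 and 52 bases before the start counted from the near edge of each box, and the Vegfc window held 2, at 200 and 189 bases. A GC box was present in 30.5% of 33469 windows of this length in the table. GC content was 60.4% for Vegfa and 72.4% for Vegfc, with a median of 51.2% over the table. The core letters of the hypoxia response element, searched as ACGTG and GCGTG on both strands, were in neither window, while ACGTG occurred in 16.6% and GCGTG in 25.9% of all windows. The window of the other Vegfa start, not shown, held neither a GC box nor these cores and had a GC content of 56.0%. Among the other members, GCGTG was found 2 times for Kdr and once each for Vegfb and Flt1. An ETS core, AGGAAG, was found once for Tie1 and 2 times for Flt1 (29.5% of windows), and TATAAA only for Flt1 among the 6 genes (12.9%). A match is a stretch of letters and not a shown binding site, and these windows do not hold more distant elements.

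Angpt1, the agonist of Tie2, had the largest difference of the 10 genes. Its single probe set, 1381487_at, read 0.30, 1.16, 0.29, 0.18 and 0.47 in adult replicates 1, 2, 3, 4 and 6. In aged replicates 2, 3, 4, 5 and 6 it read -0.18, -0.26, -0.79, -0.49 and -0.59. Every adult array was above 0 and every aged array below it. Adult replicate 2 stood far above the other adult arrays, and aged replicate 2 came closest to them. The log2 difference was -0.94 ± 0.17 SE (n = 5 per age, limma adjusted p = 0.00552), with a 95% confidence interval of -1.31 to -0.57. By size this fall ranked 8 among 724 genes that fell. Leaving out any 1 array gave differences of -1.02 to -0.77 with adjusted p of 0.00453 to 0.0171, so the call did not rest on adult replicate 2.

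Angpt2, which can oppose Angpt1 at Tie2, differed in the other direction. Its probe set 1374207_at read 0.02, -0.09, -0.39, -0.50 and -0.38 in the adult arrays, in the order above, and 0.59, 0.27, 0.07, -0.02 and 0.80 in the aged arrays. Aged replicate 5, at -0.02, lay just below adult replicate 1, so the ages overlapped, and the other 4 aged arrays were above every adult array. The difference was 0.61 ± 0.15 SE (n = 5 per age, limma adjusted p = 0.0231). The call was lost without adult replicate 3, 4 or 6 (adjusted p = 0.0621, 0.0541 and 0.0527), with differences of 0.58, 0.55 and 0.58.

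Vegfa, the main growth factor of the capillary endothelium, fell when its 2 probe sets were averaged. Adult arrays read 0.15, 0.07, 0.06, 0.37 and 0.06, and aged arrays 0.00, -0.41, -0.27, -0.58 and -0.43. The ages were apart only by the narrow gap between aged replicate 2 at 0.00 and the lowest adult array at 0.06, whereas the other 4 aged arrays were at -0.27 or lower. The difference was -0.48 ± 0.10 SE (n = 5 per age, limma adjusted p = 0.0101).

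Each Vegfa probe set alone left the ages overlapping. Probe set 1370081_a_at, whose suffix marks probes shared by several transcripts of 1 gene, read 0.28, -0.06, 0.13, 0.24 and 0.06 in adult arrays and 0.08, -0.48, -0.56, -0.61 and -0.70 in aged arrays. Aged replicate 2 was thus inside the adult range, and the other 4 aged arrays lay below it. This probe set passed the test over all probe sets, of which 8.03% did (-0.59 ± 0.13 SE, limma adjusted p = 0.0133). Without both aged replicates 3 and 6 probe set 1370081_a_at did not pass (-0.50, adjusted p = 0.0695). The second, 1373807_at, read 0.01, 0.19, -0.01, 0.50 and 0.06 against -0.07, -0.34, 0.02, -0.54 and -0.16. Here aged replicate 4 was within the adult range, and adult replicate 4 was the highest array by a wide margin. It did not pass (-0.37 ± 0.12 SE, limma adjusted p = 0.0699). Both differences were negative, and used alone as the gene's value the second gave an adjusted p of 0.0567 over all genes. Without aged replicate 4 the second passed the probe set test (-0.43, limma adjusted p = 0.0462).

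Vegfb, a ligand of Flt1 linked to coronary vessels and fatty acid handling, had a lower mean in aged hearts without passing the test (-0.25 ± 0.12 SE, adjusted p = 0.214, 95% interval -0.51 to 0.01). Adult arrays read 0.17, 0.34, -0.07, 0.05 and -0.07 and aged arrays -0.40, -0.49, 0.08, 0.01 and -0.01. Aged replicates 2 and 3 were low, and the other 3 aged arrays were inside the adult range.

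Vegfc, best known as the growth factor of lymphatic vessels, had a higher mean in aged hearts and lay just outside the threshold (0.26 ± 0.08 SE, adjusted p = 0.0562, 95% interval 0.08 to 0.43). Adult arrays read -0.09, -0.31, -0.31, -0.18 and 0.08, and aged arrays 0.10, -0.05, 0.12, 0.05 and 0.25. Only adult replicate 6 among the adult arrays was above 0, and only aged replicate 3 among the aged arrays was below it. Without either of these arrays it passed (adjusted p = 0.0199 and 0.0362).

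Among the receptors, Tek was the 1 of 4 that passed. Adult arrays read -0.01, -0.41, -0.19, -0.13 and -0.19, and aged arrays 0.39, 0.01, 0.11, 0.12 and 0.16. All aged arrays were above all adult arrays, with a gap of small size between adult replicate 1 at -0.01 and aged replicate 3 at 0.01. The difference was 0.35 ± 0.08 SE (n = 5 per age, limma adjusted p = 0.0170), and leaving out any 1 array gave 0.29 to 0.39 with adjusted p of 0.0125 to 0.0426 over all genes. In the test over all probe sets, 1393067_at did not pass without adult replicate 3 (0.35, adjusted p = 0.0505). Tie1, a receptor that pairs with Tie2 and modulates it, gave -0.02 ± 0.06 SE (adjusted p = 0.859), with a 95% interval of -0.15 to 0.11. Its adult arrays ran from -0.04 to 0.13 and its aged arrays from -0.14 to 0.14, so the aged range enclosed the adult one.

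Neither VEGF receptor gene passed. Kdr, the main signalling receptor, gave -0.03 ± 0.07 SE (adjusted p = 0.822, 95% interval -0.20 to 0.13), and Flt1 gave -0.05 ± 0.05 SE (adjusted p = 0.611, 95% interval -0.15 to 0.06). The Kdr probe set 1367948_a_at ranged from -0.40 in adult replicate 2 to 0.52 in aged replicate 2, while 1397868_at stayed between -0.04 and 0.13 on all arrays. Their differences were -0.02 ± 0.14 SE and -0.05 ± 0.05 SE. The 3 Flt1 probe sets gave -0.13 ± 0.07 SE (1369087_at), -0.07 ± 0.05 SE (1370492_a_at) and 0.06 ± 0.07 SE (1377113_at), none of which passed (limma adjusted p = 0.291, 0.484 and 0.659). The last 1 had its highest value, 0.26, in aged replicate 6. The intervals bound the change of Kdr, Flt1 and Tie1 but do not show that the ages were equal.

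Pecam1, an adhesion protein at endothelial junctions that is also made by platelets and leukocytes, did not pass (0.19 ± 0.09 SE, adjusted p = 0.200, 95% interval -0.004 to 0.39). Adult arrays read 0.04, 0.08, -0.05, -0.13 and -0.10 and aged arrays 0.34, 0.42, -0.04, -0.05 and 0.14. Aged replicates 2, 3 and 6 were above every adult array, and aged replicates 4 and 5 were within the adult range.

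**Figure D2:**
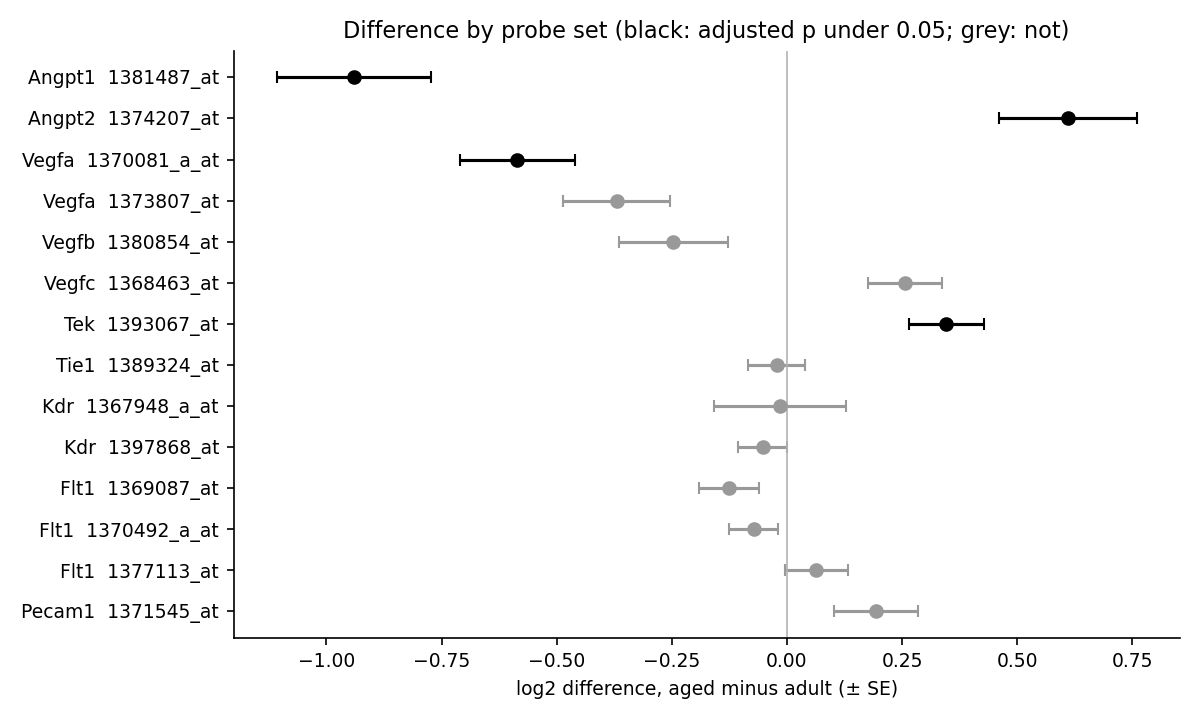
Log2 difference of each of the 14 probe sets, aged minus adult (horizontal axis), with its limma SE and n = 5 arrays per age; black points passed an adjusted p of 0.05 over all probe sets and grey points did not. The 4 black probe sets are those of Angpt1 (-0.94), Angpt2 (0.61), Tek (0.35) and 1 of the 2 of Vegfa (-0.59).

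Ligands and receptors were then set against each other on each array. No p is given for these quantities, since the members were chosen with results of these data known, and a difference between 2 genes shows unequal change and not which of them changed. Angpt1 minus Tek was 0.31, 1.57, 0.48, 0.31 and 0.66 in the adult arrays and -0.56, -0.27, -0.90, -0.62 and -0.75 in the aged arrays. Each adult array was thus above 0 and each aged array below, a change of -1.29 in the mean. This separation was fixed by the values of the 2 genes themselves. On every adult array Angpt1 was above 0 and Tek below it, and on every aged array the reverse. Angpt1 minus Angpt2, the balance of the Tie2 agonist and its context-dependent antagonist, went from 0.75 ± 0.35 (SD, n = 5) to -0.80 ± 0.37 (SD, n = 5). The adult arrays were all between 0.28 and 1.25 and the aged arrays between -1.39 and -0.47. Angpt2 minus Tek differed by 0.26, less than the SD within either age (0.27 adult and 0.31 aged), and the ages overlapped. Without aged replicate 6 it differed by 0.15.

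In the VEGF pairs, Vegfa minus Kdr was -0.02 to 0.22 in adult and -0.56 to -0.14 in aged arrays, which did not overlap, and its mean differed by -0.44. Vegfa minus Flt1 differed by -0.43. It overlapped through aged replicate 2 at -0.01, within the adult range of -0.05 to 0.29. Vegfb minus Flt1 differed by -0.20, within the SD of each age (0.25 adult and 0.28 aged), and by -0.11 without adult replicate 2 and -0.12 without aged replicate 3. Vegfc minus Kdr differed by 0.29, and 3 of 5 aged arrays were above every adult array.

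Averaged over the 5 ligands, aged arrays read -0.10 ± 0.11 (SD, n = 5) and adult arrays 0.05 ± 0.12 (SD, n = 5). The 4 receptors averaged 0.04 ± 0.09 (SD, n = 5) in aged and -0.02 ± 0.09 (SD, n = 5) in adult arrays, a difference of 0.06 that was 0.02 without replicate 2 of either age. Ligand mean minus receptor mean was 0.07, 0.40, -0.08, -0.07 and 0.05 in the adult arrays and -0.17, -0.19, -0.17, -0.21 and 0.00 in the aged arrays. Here 4 of 5 aged arrays were below every adult array, and aged replicate 6 was inside the adult range. The change of -0.22 was -0.14 without adult replicate 2. Without Angpt1 it was -0.03 over the other 4 ligands, of which Vegfa and Vegfb had lower and Angpt2 and Vegfc higher means in aged hearts.

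**Figure D3:**
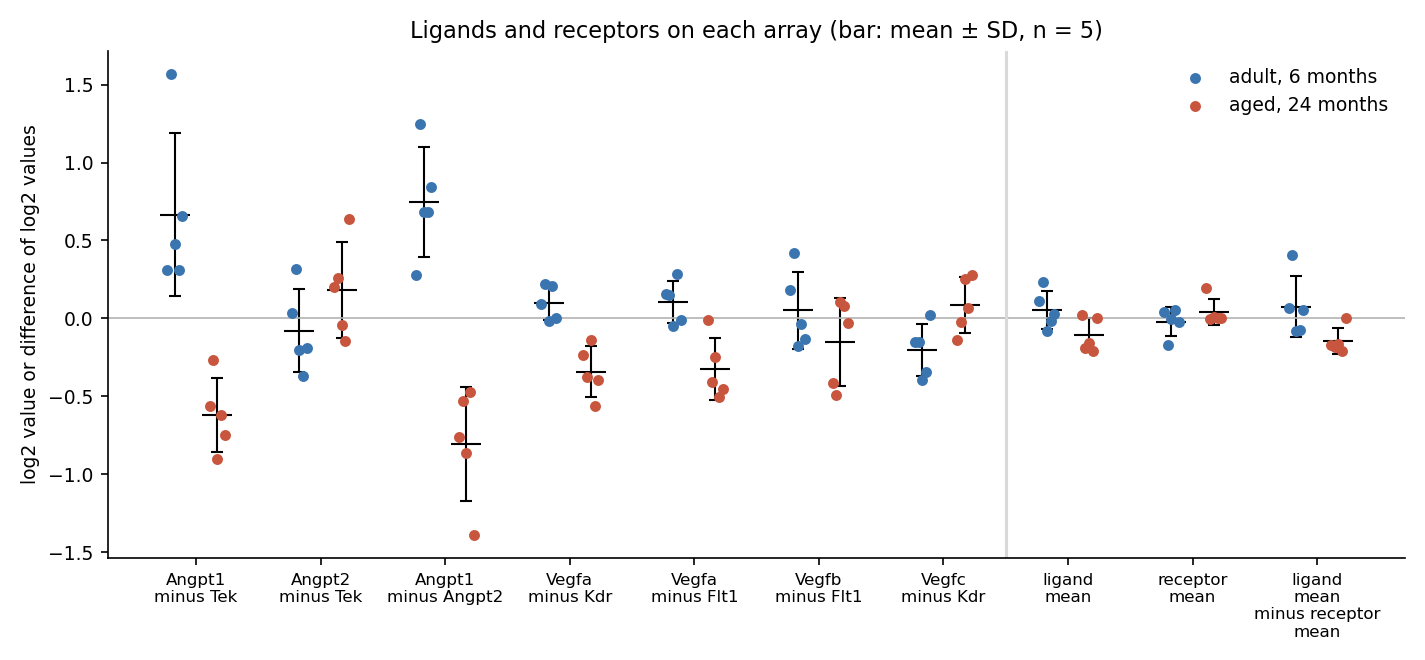
Differences between ligand and receptor values on each array for 7 gene pairs (left of the grey line) and the means over 5 ligands and 4 receptors with their difference (right), on a log2 scale, 1 point per array with bars at the mean and SD of 5 arrays. The ages are apart for Angpt1 minus Tek, Angpt1 minus Angpt2 and Vegfa minus Kdr and overlap in the rest.

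Markers of several cell types differed between the ages on the same arrays, and their part in the members' differences was not tested. Over all genes, 11.9% passed (6.77% higher and 5.09% lower in aged hearts), with a median difference of -0.005. Of 21 endothelial markers, 18 had a higher mean in aged hearts, 5 rose and 1 fell (median 0.17), and their mean per array ran from -0.16 to 0.005 in adult and from 0.004 to 0.20 in aged hearts. Vwf, the clotting factor carrier of endothelial cells, rose by 0.94, and the call was lost without adult replicate 3 (limma adjusted p = 0.0616). The transcription factor gene Lmo2 (0.36) and the extracellular matrix gene Mmrn2 (0.28) also rose. Ets1 (0.34) rose too, a call that needed each of 4 arrays, adult replicates 2 and 3 and aged replicates 3 and 6 (adjusted p = 0.0513 to 0.0729 without 1 of them). The fifth gene that rose was Fli1 (0.22) and the gene that fell was Aplnr, the apelin receptor (-0.47), both named after their values were seen. Leaving out 1 array ended the call of Fli1 for 6 of 10 arrays and that of Aplnr for 8 of 10. Without adult replicate 3 only 2 endothelial markers rose, and without adult replicate 2 only 3. Among lymphatic endothelial markers, Pdpn rose (0.36) as the 1 of 6 that passed, with a list median of 0.19. Lyve1 (0.59), Prox1 (-0.18) and Mmrn1 (0.23) did not pass (adjusted p = 0.0808, 0.0801 and 0.114). Lyve1 and Prox1 passed without aged replicate 2 and Mmrn1 without adult replicate 4 (0.0272, 0.0304 and 0.0443).

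Of 14 markers of pericytes and smooth muscle, the cells that wrap vessels, Cspg4 rose (0.22) and Des fell (-0.34), with a median of -0.003 over the list. The share called, in either direction, is near the 11.9% of all genes that passed, as is that of the lymphocyte markers below. Abcc9 (-0.17) and Mcam (0.16) did not pass (adjusted p = 0.0901 and 0.306). Leaving out 1 array ended the call of Cspg4 for 6 of 10 arrays and that of Des for all but adult replicate 1 and aged replicate 6. Cardiomyocyte markers were lower in aged hearts, with 5 of 14 fallen, 13 of 14 lower in mean and a median of -0.14. The sarcomere genes Myh6 (-1.24) and Actn2 (-0.46), the calcium release channel gene Ryr2 (-0.55) and the muscle creatine kinase gene Ckm (-0.43) fell, and these 4 calls held with any 1 array left out. The fifth call, Atp2a2 (-0.34), was named after its value was seen. It was lost for 4 of 10 arrays left out singly (limma adjusted p = 0.057 to 0.0674). The mean per array of the 14 cardiomyocyte markers ran from 0.06 to 0.26 in adult and from -0.28 to 0.01 in aged hearts. Of 12 fibroblast markers 7 rose (median 0.32), among them Fn1 (0.91), Dpt (0.70), Mfap5 (0.69) and Lum (0.68). The other calls were Pdgfra (0.60), Dcn (0.31) and Ddr2 (0.34), named after their values were seen. Leaving out 1 array ended these calls for 5, 3 and 4 of 10 arrays, adult replicate 3 among them in each. Of 13 macrophage markers 6 rose (median 0.63), among them Cd163 (0.84), C1qa (0.86), Fcgr1a (0.65) and Mrc1 (1.04). Lyz2 (0.83) and Aif1 (0.45), also named after their values were seen, lost their calls for 7 and 6 of 10 arrays left out singly. Of 15 lymphocyte markers Gzma (1.98) and Klrd1 (0.96) rose, while Nkg7 (1.11) and Prf1 (1.40) did not pass (adjusted p = 0.0551 and 0.0582). Both passed without aged replicate 2 or without aged replicate 4 (limma adjusted p = 0.0261 to 0.0304). Of 8 blood markers Pf4 (0.90) and S100a9 (1.08) rose and S100a8 (0.32) and Ppbp (-0.08) did not pass (adjusted p = 0.184 and 0.437). Without adult replicate 3 the calls of Fcgr1a, Mrc1, Gzma, Klrd1 and S100a9 were lost, as with some other single arrays (adjusted p = 0.0513 to 0.0795). The highest lymphocyte means were those of aged replicates 3 and 6. Without both arrays Angpt1 (-0.97, limma adjusted p = 0.0175) and Tek (0.40, 0.0267) passed, and Angpt2 (0.48, 0.0783) and Vegfa (-0.42, 0.0548) did not.

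**Figure D4:**
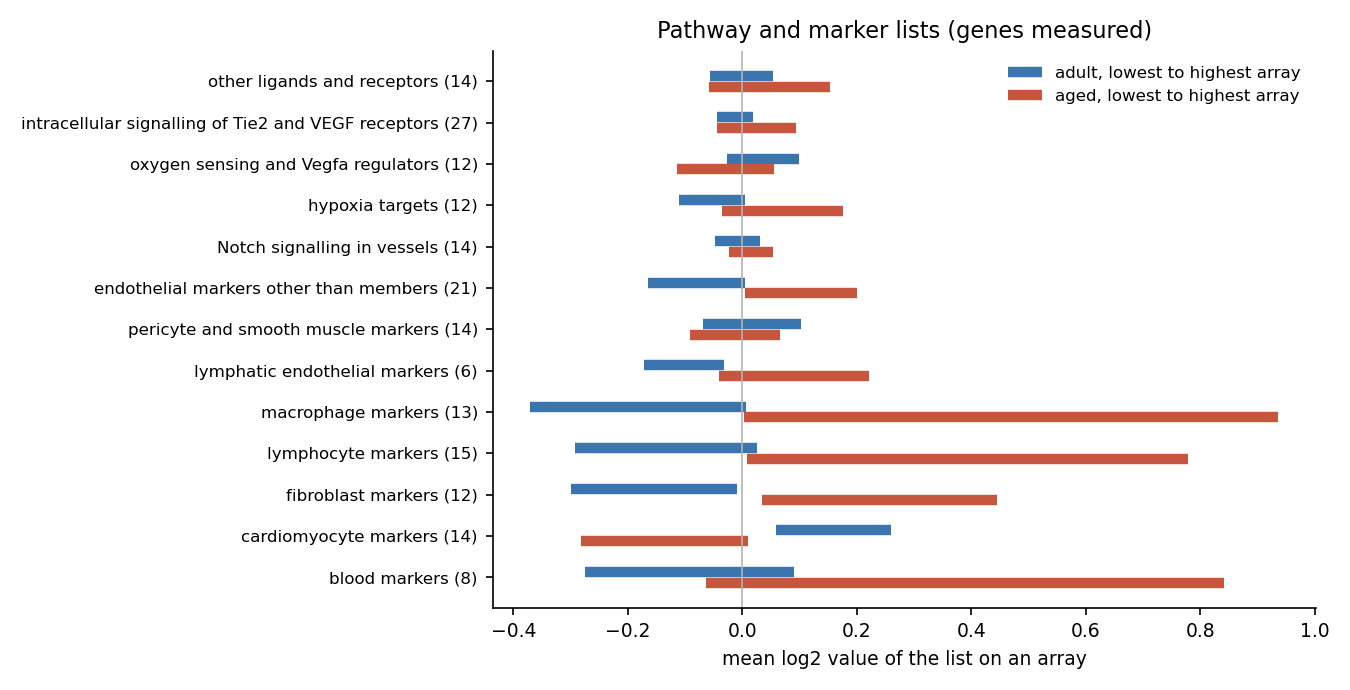
Mean log2 value per array of each pathway and marker list (horizontal axis), drawn as a bar from the lowest to the highest of 5 adult arrays (blue) and of 5 aged arrays (red), with the number of genes measured in brackets. The ages do not overlap for fibroblast and cardiomyocyte markers, and they overlap in the other lists, only slightly for endothelial, lymphatic, macrophage and lymphocyte markers.

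Set beside the endothelial markers on the same array, the endothelial members differed from each other, and the ages overlapped in all of them but Flt1. Tek minus the mean of the 21 other endothelial markers differed by 0.16 between the ages, with overlap, against 0.35 for Tek itself. This value was 0.10 without adult replicate 2 and 0.26 without both aged replicates 3 and 6. Angpt2 minus that mean differed by 0.42, and 4 of 5 aged arrays were above every adult array. Flt1 minus that mean was -0.01 to 0.25 in adult and -0.20 to -0.02 in aged arrays, which did not overlap. It differed by -0.23, while the list mean rose by 0.19 and Flt1 (-0.05), Kdr (-0.03) and Tie1 (-0.02) themselves did not pass. Kdr (-0.22) and Tie1 (-0.21) minus that mean gave differences of like size, with 3 of 5 aged arrays below every adult array in each. Without both aged replicates 3 and 6 they were -0.14 for Kdr and -0.11 for Tie1. Pecam1 gave 0.005, and between -0.039 and 0.04 with 1 array left out. For ligands known to come from other cells, Angpt1 minus the pericyte and smooth muscle mean was 0.23 to 1.07 in adult and -0.78 to -0.08 in aged arrays, which did not overlap. The cardiomyocyte mean itself differed by -0.30, while the median over its 14 genes was -0.14 and 9 of them did not pass. Myh6 (-1.24) had the largest fall among the named genes, and 13 of the 14 had a lower mean in aged hearts. A cardiomyocyte mean without Myh6 was not computed. Against the cardiomyocyte mean, Angpt1 differed by -0.64, with aged replicate 3 at 0.02 inside the adult range. Vegfa minus the cardiomyocyte mean differed by -0.18, with 4 of 5 aged arrays below every adult array, against -0.48 for Vegfa itself. Vegfb on that scale differed by 0.05, and by -0.006 to 0.16 with 1 array left out.

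**Figure D5:**
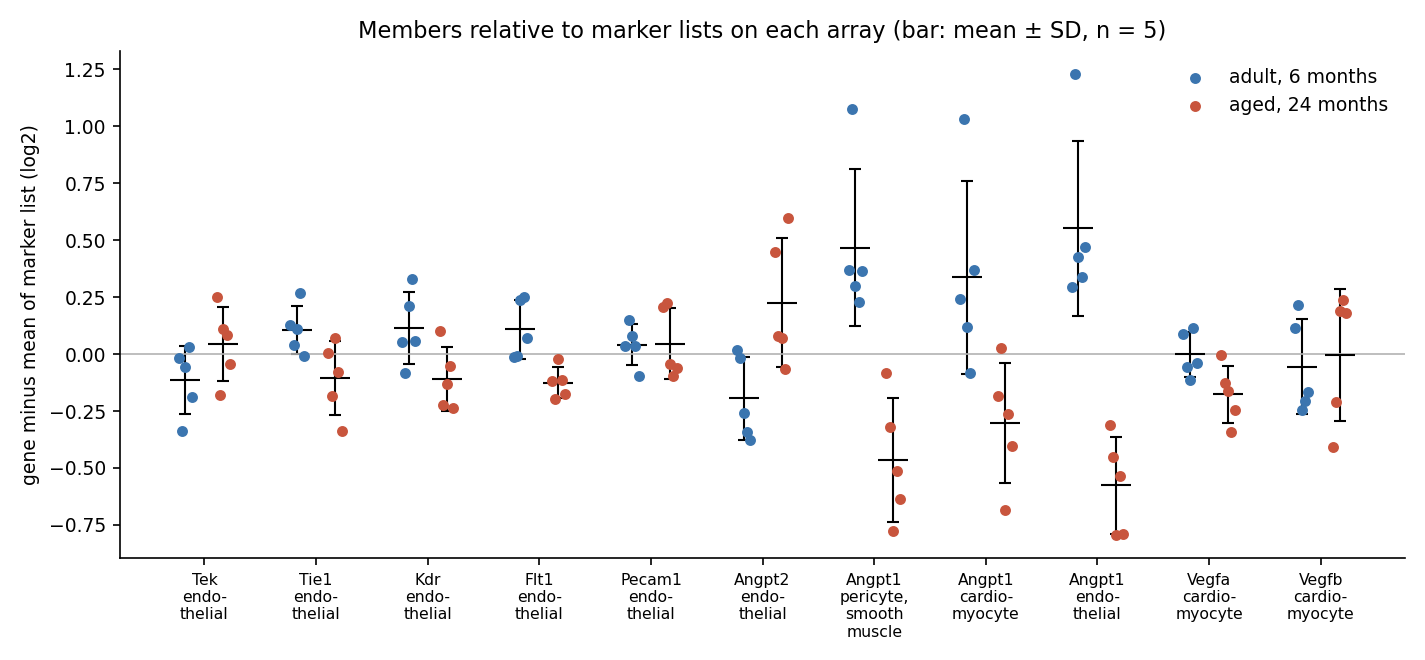
Value of a member minus the mean of a marker list on the same array (log2, vertical axis), with the member and the list named on the horizontal axis, 1 point per array and bars at the mean and SD of 5 arrays. Angpt1 keeps the ages apart against the pericyte and smooth muscle list and the endothelial list, Flt1 does so against the endothelial list, and the other 8 comparisons overlap.

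Beyond the 10 members, counts of pathway genes that passed are given by list, where 11.9% of all genes passed. These lists, too, were chosen with earlier results of these data known. Of 14 other ligands and receptors of these families and their integrin partners, 2 rose, the integrin genes Itgav (0.23 ± 0.05 SE, limma adjusted p = 0.00965) and Itgb3 (0.34 ± 0.09 SE, limma adjusted p = 0.0255). They encode the 2 chains of an integrin that binds vitronectin on growing vessels. With the probe set of largest range in place of the mean, Itgav did not pass (limma adjusted p = 0.0761). Itgb1 (0.26) and the neuropilin gene Nrp2 (-0.07) did not pass (adjusted p = 0.275 and 0.399), and the list median was 0.00. Of 27 genes of signalling inside the cell from Tie2 and the VEGF receptors, 4 rose and 2 fell (median 0.02). Akt1, the kinase that carries the survival signal of Tie2 and Kdr, read 0.05 to 0.24 in adult and -0.20 to -0.04 in aged arrays. It fell by 0.27 (± 0.05 SE, n = 5 per age, limma adjusted p = 0.00535) and the ages did not overlap. The adaptor gene Grb14, whose product binds activated receptors including Tie2, fell by 0.50 (limma adjusted p = 0.00275). Shc1, an adaptor to the Ras pathway, rose by 0.50 (limma adjusted p = 0.00121). Tnip2, whose product binds Tie2 and restrains NF-kappaB, rose by 0.39 (limma adjusted p = 0.0244). Pxn (0.30) and Rac1 (0.26), named after their values were seen, made up the 4, and leaving out 1 array ended each call for 7 of 10 arrays.

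Of 12 genes of oxygen sensing and other regulators of Vegfa, 9 did not pass, 1 rose and 2 fell, with a list median of 0.001, where 11.9% of all genes passed. Ppargc1a (-0.62 ± 0.14 SE, limma adjusted p = 0.0132) and Esrra (-0.29) fell. They encode a coactivator and a nuclear receptor that together can drive Vegfa. Vhl (0.32), which marks hypoxia-inducible factors for breakdown, rose, and Egln1 (-0.16), an oxygen sensor, did not pass (adjusted p = 0.133). Without both aged replicates 3 and 6 neither Ppargc1a nor Esrra passed (limma adjusted p = 0.0717 and 0.0668). Ppargc1a read 0.03 to 0.47 in adult arrays, and in aged arrays 0.06, -0.56, -0.17, -0.67 and -0.47. Aged replicate 2 was the highest aged array, here inside the adult range. It was also the highest aged array for Vegfa, Angpt1, Ryr2 and Actn2. Whether Ppargc1a or Esrra bears on the fall of Vegfa was not tested. Among 12 targets of hypoxia, the vasodilator peptide gene Adm (0.36) and the heme oxygenase gene Hmox1 (0.85) rose, Pdk1 fell (-0.40) and Pgk1 did not pass (-0.15, adjusted p = 0.0990), with a list median of 0.06. In Notch signalling, which shapes sprouting downstream of VEGF, Jag1 rose (0.45) and Jag2 fell (-0.28) among 14 genes with a median of -0.01. Heyl (-0.16) and Notch1 (0.14) did not pass (adjusted p = 0.0650 and 0.340), though Heyl did without adult replicate 3 (0.0442). With the probe set of largest range in place of the mean, Pdk1 did not pass and Pgk1 did (limma adjusted p = 0.350 and 0.0384). Single arrays decided several of these calls. Itgb3 did not pass without replicate 6 of either age, Esrra without adult replicate 3, and Tnip2 without adult replicates 2 or 3 and aged replicates 5 or 6, each left out singly. Hmox1 needed adult replicates 2 and 4 and aged replicate 6, Pdk1 adult replicates 2 and 3 and aged replicate 5, and Vhl adult replicates 2, 3 and 6 and aged replicates 5 and 6 (limma adjusted p = 0.0502 to 0.0652 where a call was lost).

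The genes nearest to each changed member were found by the root-mean-square difference of log2 values over the 10 arrays, which describes likeness on these arrays alone. For Angpt1, whose own root-mean-square value was 0.56, they were Tspan18 (0.19), Crybb1 (0.21) and Wfdc1 (0.22). For Vegfa (0.30) they were Lgr6 (0.07), Clpb (0.09) and the M-band gene Myom1 (0.09). Angpt2 (0.40) lay nearest to the endothelial-enriched tetraspanin-like gene Tm4sf1 (0.17), the lymphocyte gene Cd96 (0.19) and Maff (0.20), and Tek (0.21) nearest to Tmem123 (0.08), Tdp2 (0.08) and Anxa7 (0.09).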

How the data were processed

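Transcripts were measured on Affymetrix rat genome expression arrays from biotin-labelled cRNA made over 2 cycles of cDNA synthesis, per the labels' protocols. The deposited table, the only file used, holds signed log2 values for 31042 probe sets on 10 arrays. For software, background correction and normalization, the labels and file headers name nothing (not given in the sources used here). Each probe set has a median of 0 over the arrays within 1e-06, and base 2 was deduced from the spacing between neighbouring stored values. That spacing also gave approximate classes of the value before centring: 4925 probe sets at 2 to 4, 22574 at 4 to 8 and 3543 above. The members had 0, 11 and 3 in these classes. Precision is limited by the number of arrays. The highest correlation between 2 arrays was 0.57, and array medians ran from -0.0097 to 0.0093.

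Of the probe sets, 20826 had 1 symbol, 436 several and 9780 none listed. By identifier, 20758 of the first matched RefSeq (GRCr8, used for names). A gene is the mean of its probe sets. Ages were compared with limma 3.58.1 (lmFit, eBayes, no covariate) in R 4.3.3 over all 14217 genes and all probe sets, with Benjamini-Hochberg adjustment and a threshold of 0.05, and the code was tested on simulated data. Tables and plots used Python 3.11.15, numpy 2.4.6, pandas 2.3.3 and matplotlib 3.10.9. Alternatives were array centring, quantile normalization, array weights, robust eBayes, other gene summaries, no dim probe sets, a replicate block, and each array left out. Leaving out aged replicates 3 and 6 together, and setting members against marker lists, were chosen after seeing the data. All members with their probe sets are named, as are up to 4 genes of smallest p of each other list and the 3 nearest genes of each changed member. The members and lists were chosen with earlier results of these data known. Arrays with the same number were not treated as pairs: their deviations from the group means correlated at 0.01, 0.06, 0.14 and 0.04 over probe sets.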

Additional observations from a re-analysis of the deposited data

Results flagged for a closer look

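In 76 groups of 5 arrays (member genes, probe sets of genes with several, and the differences per array), 8 had an array far from the others by Dixon's ratio of gap to range, where chance gives about 1 in 20. The groups are not independent, since the differences per array reuse values of the same genes, so the count is not a test against chance. Adult replicate 2 stood out in Angpt1 minus Tek (1.57, next array 0.66), in Angpt1 minus the pericyte and smooth muscle mean (1.07, next 0.37) and in Angpt1 minus the endothelial mean (1.23, next 0.47). Aged replicate 2 stood out in the receptor mean (0.20, next 0.01) and in the Vegfa probe set 1370081_a_at (0.081, next -0.48). Vegfa itself was high in adult replicate 4 (0.37, next 0.15). Aged replicate 6 was high in the Kdr probe set 1397868_at (0.13, next -0.003) and in ligand mean minus receptor mean (0.0007, next -0.17).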

How the results depend on the processing

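Angpt1 passed under all 19 alternatives run (-1.03 to -0.77), Tek under 18, Vegfa under 17 and Angpt2 under 15, and Kdr, Flt1, Tie1, Vegfb and Pecam1 passed under none. With the replicate number as a block, Tek gave 0.40 (adjusted p = 0.0558), Vegfc 0.28 (0.0382, now past the threshold), Tie1 and its probe set 1389324_at 0.014 and Kdr probe set 1367948_a_at 0.007, and the other calls among the member genes stayed. In the test over probe sets, the block ended the call of Vegfa 1370081_a_at (-0.51, 0.0952) and gave one to Vegfa 1373807_at (-0.33, 0.0367). Nkg7 and Prf1 also passed with the block, quantile normalization and the probe set of largest range. The block also ended the calls of Itgav, Akt1, Tnip2, Ppargc1a, Esrra, Pdk1, Jag2 and Cspg4. Vegfc also passed with quantile normalization (0.24, 0.0454) and array weights (0.26, 0.0435). Lyve1 passed with the same 2 alternatives (limma adjusted p = 0.0269 to 0.0414), and Mmrn1 (0.0415) and Heyl (0.0469) passed with array weights. By the probe set of largest range, Vegfa did not pass (-0.37, 0.0567), which left 1 member called lower, and Flt1 was 0.063. Without both aged replicates 3 and 6, which leaves fewer samples, Angpt2 (0.48, 0.0783) and Vegfa (-0.42, 0.0548) did not pass, which left 1 member called in each direction, Tie1 and its probe set 1389324_at were 0.027 and Kdr probe set 1367948_a_at 0.076. Over single arrays left out, differences ran from 0.50 to 0.70 for Angpt2, from -0.055 to 0.015 for Tie1 and its probe set 1389324_at, from 0.22 to 0.32 for Vegfc and from -0.143 to 0.045 for Kdr probe set 1367948_a_at. Members called higher then numbered 1 to 3. Ligand mean minus receptor mean was -0.026 without Angpt1. Of 376 counts of called genes in the lists under alternatives, 292 were within 1.5 times the count reported, 71 lower and 13 higher. Where not stated, the cause was not tested.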
